A study of Mus musculus with 5 samples.

Results

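Cell cycle and DNA replication genes were followed in whole lungs that either carried or lacked Cldn4, which encodes the tight junction protein claudin-4. The 42 genes were a list of symbols, kept where the mean abundance was at least 0 on the log2 CPM scale (CPM is the read count scaled to a common library size) in each of 4 comparison tables. All 42 listed genes passed, out of 21590 genes in the tables and 14285 that passed the same filter. The lowest mean was that of Ccnb1, at 0.02 log2 CPM in the KO_VILIhigh table, and the highest that of Rrm1, at 5.44. RNA was sequenced from whole lung of animals on a mixed 129S6, C57BL/6 and BALB/c background, in 5 groups. WT_noVILI and KO_noVILI are unventilated wild type and Cldn4 knockout lungs. WT_VILI is wild type after 2 h of ventilation at 40 cmH2O, a pressure that overstretches lung tissue and is abbreviated VILI for the injury it causes. KO_VILIlow and KO_VILIhigh are knockout lungs after the same ventilation, sorted by the study into animals whose injury resembled wild type and animals injured more than wild type, so that these groups were formed by outcome. Each group was in duplicate, per the design text, and no age or sex is given. The values used here are fold changes between groups with none per animal, so neither depth nor the spread between animals can be given. The p-values measure only the spread between the authors' libraries, which may be technical.

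A dividing cell first licenses its replication origins by loading the MCM helicase, copies its DNA in S phase, and then separates the copies on a mitotic spindle. E2F transcription factors drive genes of the first steps, and a complex that includes FOXM1 and B-MYB drives the mitotic genes through a promoter element called CHR (cell cycle genes homology region), often with CCAAT boxes beside it. Most cells of an adult lung are at rest, and the cells that divide include lymphocytes, macrophages, endothelial cells and epithelial progenitors. In whole lung, a change in the number of dividing cells and a change in RNA per cell cannot be told apart.

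Promoters of the members are shown because the genes are described by role, and replication and mitotic genes are known for different promoter elements. For 34 of the 42 genes a window from 250 bases before to 50 bases after the gene's first listed start was found in RefSeq (build GRCm38.p6, not the mm9 build of the reads). The 6 windows printed belong to the 3 replication genes and the 3 mitotic genes with the smallest p in unventilated knockout against wild type lungs among those with a window. Capitals mark matches, on either strand, to E2F motifs (TTTGGCGC, TTTCGCGC or TTCCCGCC), to CHR motifs (TTTGAA or TTCGAA) and to CCAAT.
Rrm2 (chr12:24708004-24708303, plus strand): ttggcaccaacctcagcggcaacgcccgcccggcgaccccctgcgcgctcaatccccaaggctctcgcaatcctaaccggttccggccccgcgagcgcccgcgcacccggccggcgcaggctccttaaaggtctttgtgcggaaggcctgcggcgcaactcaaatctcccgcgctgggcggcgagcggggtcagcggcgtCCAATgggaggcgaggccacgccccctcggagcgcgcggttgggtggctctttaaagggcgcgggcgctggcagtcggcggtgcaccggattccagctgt
Tyms (chr5:30073576-30073875, minus strand): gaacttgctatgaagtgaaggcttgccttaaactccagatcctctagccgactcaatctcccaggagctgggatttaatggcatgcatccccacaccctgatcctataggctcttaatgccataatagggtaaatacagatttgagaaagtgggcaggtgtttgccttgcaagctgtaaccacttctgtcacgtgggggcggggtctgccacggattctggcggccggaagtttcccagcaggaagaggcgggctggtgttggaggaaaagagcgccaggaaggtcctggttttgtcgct
Mcm5 (chr8:75109259-75109558, plus strand): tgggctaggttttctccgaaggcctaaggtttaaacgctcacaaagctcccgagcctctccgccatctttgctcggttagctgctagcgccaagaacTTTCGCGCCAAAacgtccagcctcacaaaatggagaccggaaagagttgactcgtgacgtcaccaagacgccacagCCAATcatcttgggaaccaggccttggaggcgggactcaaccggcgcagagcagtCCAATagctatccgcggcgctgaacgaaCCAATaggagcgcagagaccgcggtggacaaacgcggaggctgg
Prc1 (chr7:80294201-80294500, plus strand): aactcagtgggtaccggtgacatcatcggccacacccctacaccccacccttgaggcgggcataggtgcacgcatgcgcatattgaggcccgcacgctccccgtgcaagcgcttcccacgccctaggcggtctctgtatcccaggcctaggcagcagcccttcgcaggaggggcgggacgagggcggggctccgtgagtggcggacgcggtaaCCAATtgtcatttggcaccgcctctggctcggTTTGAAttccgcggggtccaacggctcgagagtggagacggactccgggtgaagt
Ect2 (chr3:27153829-27154128, minus strand): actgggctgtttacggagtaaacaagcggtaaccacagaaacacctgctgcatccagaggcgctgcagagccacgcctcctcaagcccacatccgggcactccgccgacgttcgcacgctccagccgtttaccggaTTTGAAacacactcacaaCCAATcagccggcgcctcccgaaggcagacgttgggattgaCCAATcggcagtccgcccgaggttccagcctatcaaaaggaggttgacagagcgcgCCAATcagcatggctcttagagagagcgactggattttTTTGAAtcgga
Bub1b (chr2:118597961-118598260, plus strand): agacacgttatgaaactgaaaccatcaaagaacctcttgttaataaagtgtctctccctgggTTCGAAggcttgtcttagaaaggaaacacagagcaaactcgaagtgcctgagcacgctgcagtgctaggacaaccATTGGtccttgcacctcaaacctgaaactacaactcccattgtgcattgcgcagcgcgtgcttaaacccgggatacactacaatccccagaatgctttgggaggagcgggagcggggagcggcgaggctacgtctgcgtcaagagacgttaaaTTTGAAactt
Mcm5 held 2 overlapping E2F matches, of which the first began 153 bases before the start. Prc1 held a CHR match that began 5 bases before the start and a CCAAT box that began 37 bases before it. Ect2 and Bub1b held 2 CHR matches each, and Ect2 held 3 CCAAT boxes. Rrm2 held 1 CCAAT box, and no match was found in the Tyms window. A match is a description of letters and not of binding.

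Over the replication and mitotic members with a window, motif letters differed between these 2 sets, given as a description. Windows of proliferation markers, cyclins, Cdk1 and transcription factors were in neither set, and that of Cdk1 held 1 E2F and 2 CHR matches. E2F letters were in 6 of 11 windows of licensing, helicase and nucleotide supply genes (54.5%) and in 0 of 15 windows of mitotic genes, against 5.36% of the 11242 windows of all genes that passed the filter. CHR letters were in 12 of 15 mitotic windows (80%), in 2 of 11 replication windows (18.2%) and in 13.9% of all windows. CCAAT was in 13 of 15 mitotic windows (86.7%), 8 of 11 replication windows (72.7%) and 38.1% of all windows.

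**Figure D1:**
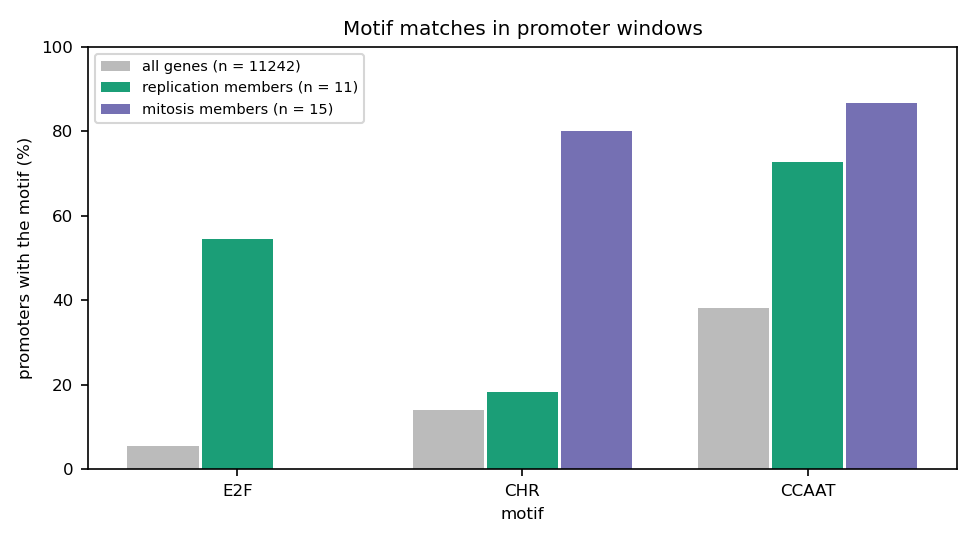
Percent of promoter windows (y axis) holding E2F, CHR or CCAAT letters (x axis), as bars for all genes that passed the filter, the replication members and the mitosis members. CHR stands at 80% in the mitosis members against 13.9% of all genes, and E2F at 54.5% in the replication members against 5.36%.

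Group levels were rebuilt from each table's fold change and mean abundance and are given in CPM, 1 value per group with no spread. The label of the knockout was checked on Cldn4 (Entrez 12740), which stood at 9.38 CPM in WT_noVILI and 140 in WT_VILI, and at 0.14, 0.0211 and 0.122 in KO_noVILI, KO_VILIlow and KO_VILIhigh. Lung markers were abundant, with summed alveolar type 2 markers between 25450 and 30270 CPM and summed endothelial markers between 4270 and 5684 CPM over the 5 groups. The ventilated and unventilated groups also differed in sex-linked RNA, with Xist at 891 and 505 CPM in WT_noVILI and KO_noVILI and between 2.64 and 6.13 CPM in the ventilated groups, so sex and ventilation cannot be told apart in any contrast between them. The tables for KO_VILIlow and KO_VILIhigh were read as comparisons with WT_VILI. Their rebuilt reference lay a median of 0.0491 and 0.045 log2 from WT_VILI after centring, closer than to WT_noVILI (0.204 and 0.203) but less close than both rebuilt WT_noVILI levels were to each other (0.00593).

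The median member stood at 4.18 CPM in WT_noVILI, 6.80 in KO_noVILI, 5.44 in WT_VILI, 4.53 in KO_VILIlow and 4.31 in KO_VILIhigh. The unventilated knockout held the highest of the 5 levels for 29 of the 42 genes, and for none of them the lowest. WT_noVILI held the lowest level for 17 genes, KO_VILIlow for 12 and KO_VILIhigh for 9. These orders rest on 1 value per group, with ventilated knockout levels scaled to WT_VILI, and are a description. They also depend on the comparison from which WT_VILI was rebuilt. For Aurka it was 3.49 CPM from the wild type comparison, and 2.9 and 3.02 CPM from those of KO_VILIlow and KO_VILIhigh, against 3.43 CPM in KO_noVILI. For Prc1 it was 13, 11.6 and 11.9 CPM, against 11.7 CPM in KO_noVILI. The order of close levels is therefore uncertain.

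Most of the 42 listed cell cycle genes were higher in unventilated knockout than in unventilated wild type lungs, which is the comparison of the genotypes at rest. The list was chosen with earlier results of these data known. Other lists of cell cycle genes, given below, had smaller medians. In the authors' deposited edgeR results, 8 of the 42 genes rose at an adjusted p of 0.05 and 0 fell, where 2.01 percent of all genes that passed the filter were called higher. The log2 fold change was above 0 for 41 of 42 members, against 51.8 percent of all genes. Its median was 0.59, with the middle of the members between 0.35 and 0.93, while all genes had a median of 0.01 and ran from -0.17 to 0.18 over the same quartiles. The exception was Mcm3, a subunit of the replicative helicase, at -0.26. No member remained called under Bonferroni adjustment of the deposited p, where the smallest was 0.164, for Top2a.

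Mki67, which encodes the proliferation antigen Ki-67, had 22.1 CPM in WT_noVILI, 37.3 in KO_noVILI, 25.2 in WT_VILI, 18.9 in KO_VILIlow and 22 in KO_VILIhigh. The unventilated knockout was the highest of the 5. Its log2 fold change was 0.76 with an approximate standard error of 0.22, back-calculated from the deposited p (adjusted p = 0.0268 in the authors' edgeR table). Top2a, the topoisomerase that untangles chromosomes before they separate, went from 10.2 to 19.5 CPM and lay between 9 and 11.9 CPM in the 3 ventilated groups. Its difference at rest was a log2 fold change of 0.94 ± 0.21 (approximate SE; adjusted p = 0.000782, edgeR). In linear terms these were 1.69-fold and 1.92-fold higher levels.

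Among the cyclins and their kinase, none passed the threshold. Cdk1, the kinase that drives entry into mitosis, had 1.70 CPM in unventilated wild type and 3.83 CPM in unventilated knockout lungs (log2 fold change 1.17, adjusted p = 0.122, edgeR), and its partner Ccnb1 at 0.681 and 1.64 CPM (1.27, adjusted p = 0.392). Ccnb2 was at 0.64, the S phase and G2 cyclin Ccna2 at 0.21, and the G1/S cyclins Ccne1 and Ccne2 at 0.91 and 0.23 on the same log2 scale. The transcription factors were also uncalled, with E2f1 at 0.45, E2f8, a repressor of E2F targets, at 1.13, and Foxm1 at 0.47. Low abundance limits these values: the approximate standard error was 0.63 for Ccnb1 and 0.46 for E2f8.

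Among the groups of genes by role, the 10 licensing and helicase genes had the lowest median log2 fold change at rest, 0.24, and none was called. The medians were 0.78 for the 3 nucleotide supply genes, 0.88 for mitotic kinases and passengers, 0.72 for checkpoint and anaphase genes and 0.78 for spindle, kinetochore and cytokinesis genes. Among the helicase subunits Mcm5 stood at 0.55, Mcm6 at 0.44, Mcm2 at 0.40, Mcm7 at 0.15, Mcm4 at 0.00 and Mcm3 at -0.26. Gins2, a further part of the helicase, stood at 0.53, the loading factors Cdc6 and Cdt1 at 0.33 and 0.12, and the sliding clamp Pcna at 0.13. Of the genes that supply nucleotides, Rrm2, the regulated subunit of ribonucleotide reductase, rose from 4.44 CPM in WT_noVILI to 9.90 CPM in KO_noVILI (log2 fold change 1.16 ± 0.26, approximate SE, adjusted p = 0.00105, edgeR). Its constitutive partner Rrm1 went from 42.6 to 44.4 CPM (0.06), and thymidylate synthase, Tyms, from 4.94 to 8.51 CPM (0.78, adjusted p = 0.0891). Differences between these groups of genes were not tested.

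The mitotic kinases Aurkb and Aurka showed the largest values among the members. Aurkb, the kinase of the chromosomal passenger complex that corrects faulty spindle attachments, rose from 1.31 to 4.40 CPM at rest, a log2 fold change of 1.75 ± 0.41 (approximate SE, adjusted p = 0.00195, edgeR). Aurka, the kinase of spindle poles, rose from 1.33 to 3.43 CPM (1.37 ± 0.42, adjusted p = 0.0397). The passenger subunits Birc5 (survivin) and Cdca8 (borealin) stood at 0.88 and 0.79 and the kinase Plk1 at 0.53, none of them called. Bub1b, a kinase-like protein of the spindle checkpoint, rose from 3.49 to 7.10 CPM (1.02 ± 0.31, adjusted p = 0.0311). Its relative Bub1 was at 0.41, and Cdc20 and Ube2c, which act with the anaphase-promoting complex, at 0.26 and 1.13.

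Of the 9 genes of the spindle, kinetochore and cytokinesis, 2 rose. Prc1, which bundles microtubules of the central spindle, went from 5.81 to 11.7 CPM (log2 fold change 1.01 ± 0.27, approximate SE, adjusted p = 0.00873, edgeR). Ect2, the exchange factor that starts the cleavage furrow, went from 2.78 to 5.79 CPM (1.06 ± 0.32, adjusted p = 0.0297). The motors Kif11, Kif23 and Kif20a stood at 0.78, 0.38 and 0.02, the kinetochore proteins Cenpf and Cenpe at 0.81 and 0.45, and the spindle proteins Tpx2 and Nusap1 at 0.80 and 0.63. All 9 values were positive.

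**Figure D2:**
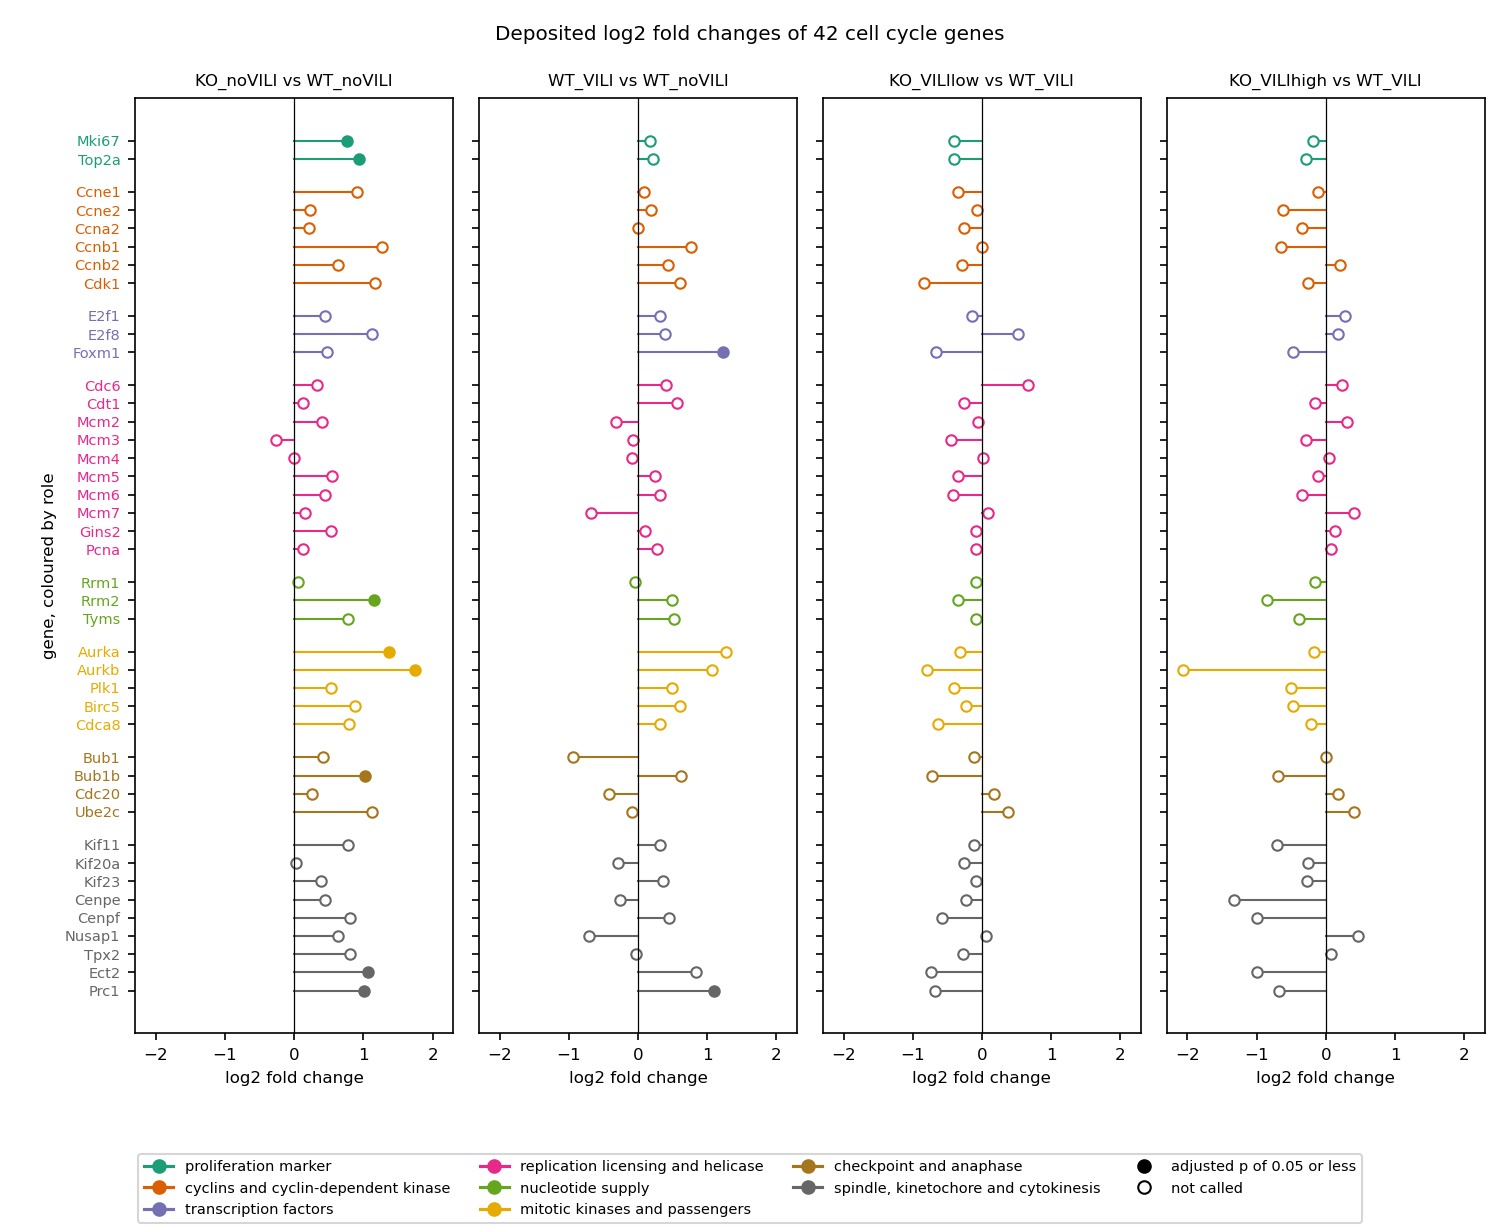
Deposited log2 fold change (x axis) of each of the 42 genes (y axis, coloured by role) in 4 comparisons, with filled points for an adjusted p of 0.05 or less. In KO_noVILI against WT_noVILI 41 points lie above 0 and 8 are filled, while both panels of ventilated knockout lungs hold no filled point.

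Other genes of the cycle, from lists that leave out the members, had smaller medians. Of 64 other mitosis genes that passed the filter 55 were positive, with a median of 0.32, and 2 rose: Cdca3, which helps trigger mitotic entry (2.03, adjusted p = 0.000466, edgeR), and the nuclear import factor Kpna2 (0.79, adjusted p = 0.0166). Of 57 other replication genes 42 were positive, with a median of 0.11, and 1 rose, the recombination factor Rad51ap1, from 1.02 to 7.19 CPM (2.81, adjusted p = 6.91e-11). Of all genes that passed the filter 2.01 percent were called higher, so the counts called in these mitosis and replication lists lay near the background. Of 43 G1 regulators and inhibitors 3 rose and 1 fell, with a median of 0.07. Those that rose were Ccnd1, the cyclin that responds to growth factors (0.67, adjusted p = 0.000396), the inhibitor Cdkn1a, or p21 (0.92, adjusted p = 1.95e-06), and Mycn (1.33, adjusted p = 0.021). The one that fell was the antiproliferative immediate early gene Btg2 (-1.40, adjusted p = 4.6e-15).

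**Figure D3:**
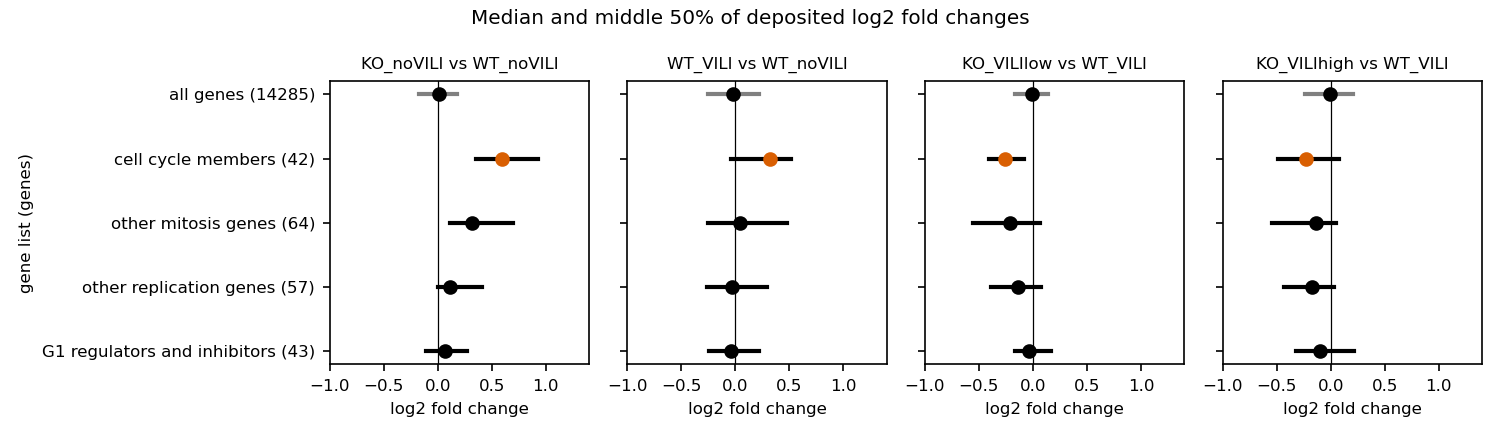
Median (points) and quartiles (bars) of the deposited log2 fold change (x axis) for all genes that passed the filter, the 42 members and 3 lists of other cell cycle genes (y axis), in 4 comparisons. The members' median is 0.59 in the unventilated knockout and lies below 0 in both ventilated knockout groups.

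Markers of lymphocytes and of some other cells differed between the same unventilated groups. T and NK cell markers summed to 106 CPM in unventilated wild type and 186 CPM in unventilated knockout lungs, and 4 of 13 rose, among them the cytotoxic granule genes Gzma (7.47 to 32.5 CPM, log2 fold change 2.12) and Prf1 (1.35) and the transcription factor Tbx21 (3.04). Of these 13, 3 were lower without being called: Ncr1 (4.07 to 3.31 CPM), Klrb1c (1.93 to 1.52 CPM) and Cd2 (22.6 to 21.1 CPM). B cell markers summed to 251 and 89.8 CPM, and 12 of 12 fell, by a median log2 fold change of -1.55. Thymocyte markers summed to 208 and 225 CPM with 0 of 10 called, and those that define immature thymocytes were near the floor in both groups: Rag1 at 0.198 and 0.516 CPM, Dntt at 0.457 and 0.316 CPM, and Ptcra at 0.238 CPM in both. Of the plasma cell and germinal centre list 1 of 8 rose, the antibody joining chain Igj (2.24). The list of dividing myeloid progenitors summed to 468 and 524 CPM, most of it from Cd34 (256 and 265 CPM) and Kit (178 and 235 CPM), which other lung cells express too. Of its 4 members that passed the filter 0 rose and 1 fell, Myb (-0.70), while the granule genes Elane (0.238 CPM in both groups) and Mpo (0.288 and 0.545 CPM) were near the floor. Alveolar macrophage markers summed to 644 and 774 CPM, with 2 of 10 higher, among them Marco (9.05 to 27.8 CPM), and 1 lower, Fabp4 (24.8 to 10.3 CPM). Of the neutrophil markers 1 of 10 rose and of the endothelial markers 1 of 12. Red blood cell markers summed to 4116 and 6451 CPM with 0 of 7 called, and the respiratory chain list, kept for RNA quality, had a median of -0.01. In this comparison 2.01 percent of all genes that passed the filter were called higher, and 404 of 14285 were called lower. The part of these cells in the cell cycle values was not tested.

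Few cell cycle genes were called between ventilated and unventilated wild type lungs. These groups also differed in sex-linked RNA, so ventilation and sex cannot be told apart here. In the authors' edgeR results, 2 of 42 rose and 0 fell, where 6.94 percent of all genes that passed the filter were called higher, so the share among the members was no higher than the background. The members' median log2 fold change was 0.32, with 29 positive and 12 negative, against a median of -0.02 and 46.7 percent positive for all genes. The pair that rose was Foxm1, the transcription factor of the G2/M programme, from 6.92 to 16.5 CPM (1.23 ± 0.26, approximate SE, adjusted p = 7.47e-05), and Prc1, from 5.81 to 13.0 CPM (1.09 ± 0.27, adjusted p = 0.00114). Under Bonferroni adjustment 1 of them, Foxm1, remained. This comparison and the one at rest share the WT_noVILI lungs, so their values are not independent.

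Other mitotic members were higher without passing. Aurka stood at 1.27 (adjusted p = 0.102, edgeR), Aurkb at 1.07, Ect2 at 0.84, Bub1b at 0.62 and Cdk1 at 0.60 on the log2 scale. Mki67 (0.17) and Top2a (0.21) were close to their unventilated levels, at 25.2 and 11.9 CPM. Negative values were met in Bub1 (-0.94), Nusap1 (-0.71) and the helicase subunit Mcm7, which went from 16.3 to 10.3 CPM (-0.68, adjusted p = 0.0675). Ccna2 was deposited with a fold change of exactly 0 in this table, as were Ccnb1 for KO_VILIlow and Bub1 for KO_VILIhigh, and nothing is read from these 3 values.

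Among G1 regulators the calls after ventilation went in both directions. Cdkn1a, which binds and blocks cyclin-dependent kinases, rose from 27.5 CPM to 165 CPM (log2 fold change 2.57, adjusted p = 1.99e-58, edgeR), and Wee1, the kinase that holds Cdk1 inactive, from 44.3 to 98.6 CPM (1.15, adjusted p = 2.78e-11). The growth-promoting factor Myc rose as well, from 9.86 to 41.5 CPM (2.05, adjusted p = 1.43e-23). These made 3 higher calls. The inhibitor Cdkn1b, or p27, fell by 0.77 and Ccng2 by 0.48 on the log2 scale, the 2 lower calls among 43 G1 regulators. Of 64 other mitosis genes 2 rose, the kinetochore genes Spc25 (1.23) and Zwint (0.74), and 1 fell, the phosphatase Cdc25b (-0.52). Of 57 other replication genes 2 rose, Dbf4 (0.92) and Dck (0.71), and 2 fell, Timeless (-0.87) and Atad2 (-0.67). Of all genes that passed the filter 6.94 percent were called higher and 885 of 14285 lower. The shares in the mitosis and replication lists were no higher than that. In these lungs 10 of 10 neutrophil markers rose and their sum went from 238 to 775 CPM, while T and NK cell markers summed to 106 and 104 CPM. B cell markers summed to 251 and 160 CPM, with 5 of 12 lower. Red blood cell markers summed to 4116 and 1055 CPM, with 4 of 7 lower, and endothelial markers to 4898 and 4478 CPM, with 4 of 12 lower. Of the alveolar macrophage markers 1 of 10 was lower. The part of these cells was not tested.

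Cell cycle genes were not called between ventilated knockout and ventilated wild type lungs, where few of all genes were called. Against WT_VILI 0 of 42 members were called in KO_VILIlow in the authors' edgeR results, where 1.37 percent of all genes were called in either direction, and 34 of 42 values were negative, with a median log2 fold change of -0.26 against -0.01 for all genes. At an unadjusted p under 0.05, 2 members were lower and 0 higher, Foxm1 (-0.66) and Prc1 (-0.68), and 3.38 percent of all genes were lower by that rule, so these counts lie near the background. The most negative value was that of Cdk1, from 2.88 CPM in WT_VILI to 1.63 CPM in KO_VILIlow (-0.83, adjusted p = 1), followed by Aurkb (-0.80), Ect2 (-0.73) and Bub1b (-0.72). The loading factor Cdc6 was the most positive, at 0.66, with E2f8 at 0.52 and Ube2c at 0.38.

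The lungs with more injury gave a similar picture of calls. Of the 42 members 0 were called in KO_VILIhigh against WT_VILI (edgeR), where 2.22 percent of all genes were, and 28 values were negative, with a median of -0.23. At an unadjusted p under 0.05, 2 were lower and 0 higher, where 5.94 percent of all genes were lower. These were Aurkb, from 3.24 to 0.771 CPM (-2.07 ± 0.71, approximate SE, adjusted p = 0.139), and Cenpf (-0.99). Cenpe stood at -1.33, Ect2 at -0.99 and Rrm2 at -0.85, whereas Nusap1 (0.46), Ube2c (0.41) and Mcm7 (0.41) were positive. Both ventilated knockout comparisons share the WT_VILI lungs.

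The inhibitor Cdkn1a was higher in both, at 288 CPM in KO_VILIlow and 379 CPM in KO_VILIhigh against 165 CPM in WT_VILI (log2 fold changes 0.80 and 1.20, adjusted p = 0.0358 and 6.58e-05, edgeR). Together with Myc (2.15-fold) and Btg2 (log2 fold change 1.36) it made up the 3 higher calls among G1 regulators in KO_VILIhigh, while it was the single call in KO_VILIlow. Of 64 other mitosis genes 0 were called in either table, with medians of -0.21 and -0.14 (at an unadjusted p under 0.05, 0 higher and 2 lower in KO_VILIlow, 6 higher and 1 lower in KO_VILIhigh). Of 57 other replication genes 1 rose in KO_VILIlow, Rad51ap1 (1.60, adjusted p = 0.0359), which stood at -0.44 in KO_VILIhigh. Of all genes that passed the filter 1.37 and 2.22 percent were called in either direction in KO_VILIlow and KO_VILIhigh. T and NK cell markers summed to 85.9 and 141 CPM in KO_VILIlow and KO_VILIhigh against 104 CPM in WT_VILI, and B cell markers to 54.3 and 165 CPM against 160 CPM, with 11 and 0 of 12 lower. Red blood cell markers summed to 3390 and 3098 CPM against 1055 CPM, with 1 and 4 of 7 higher. Alveolar macrophage markers summed to 706 and 671 CPM against 488 CPM, with 1 and 2 of 10 higher. Neutrophil markers summed to 1003 and 1360 CPM against 775 CPM, with 1 and 2 of 10 higher. The respiratory chain list, kept for RNA quality, had medians of 0.20 and 0.22 with 0 of 22 called. The part of these cells and of RNA quality was not tested.

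Across the 5 groups the 9 members called in any deposited comparison followed different orders. Foxm1 had 6.92 CPM in WT_noVILI, 9.61 in KO_noVILI, 16.5 in WT_VILI, 10.5 in KO_VILIlow and 11.8 in KO_VILIhigh. Rrm2 had 4.44, 9.90, 6.55, 5.12 and 3.64 CPM in the same order. Aurkb had 1.31, 4.40, 3.24, 1.86 and 0.771 CPM. Foxm1 was thus highest in ventilated wild type lungs, while Rrm2 and Aurkb were highest in unventilated knockout and lowest in the more injured knockout lungs. Bub1b had 3.49, 7.10, 5.54, 3.36 and 3.43 CPM. Ect2 had 2.78, 5.79, 5.33, 3.21 and 2.68 CPM. Prc1 had 5.81, 11.7, 13.0, 8.09 and 8.13 CPM. In both ventilated knockout groups these 3 genes of checkpoint and cytokinesis lay below WT_VILI. Aurka had 1.33, 3.43, 3.49, 2.80 and 3.11 CPM, so that WT_noVILI alone stood apart on the low side. With 1 value per group no overlap of animals can be read.

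**Figure D4:**
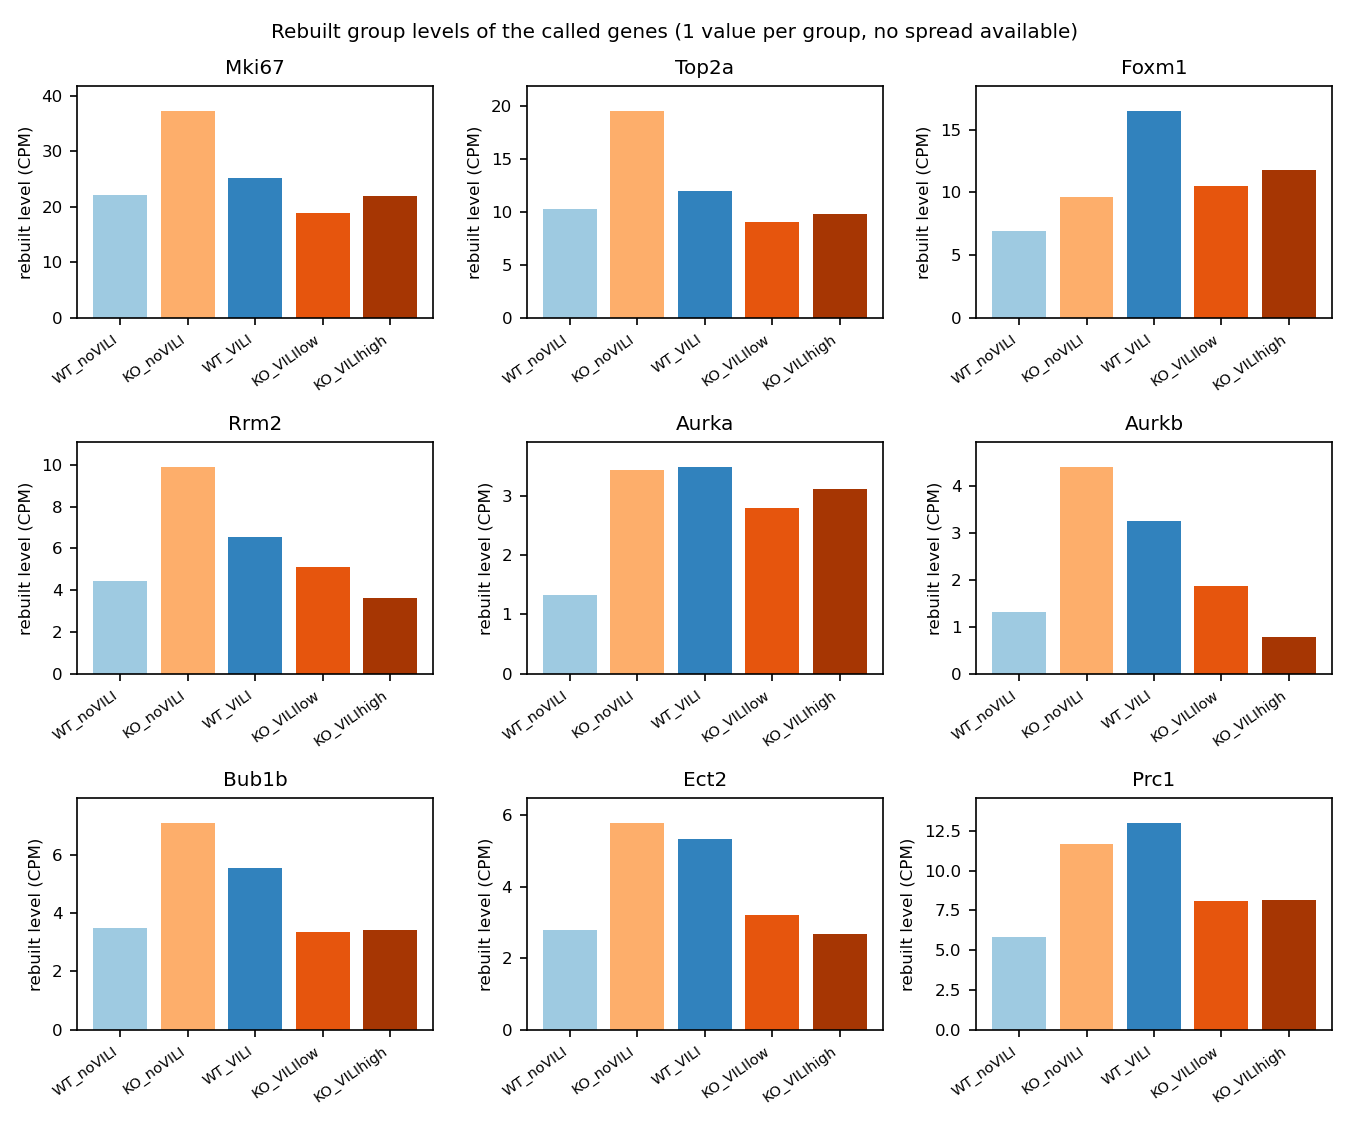
Rebuilt level in CPM (y axis) of the 9 members called in any of the 4 tables, in the 5 groups (x axis), 1 value per bar with no error available. Aurkb runs from 4.40 CPM in KO_noVILI to 0.771 in KO_VILIhigh, while Foxm1 is highest in WT_VILI, at 16.5.

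Whether the genotype difference itself changed with ventilation was tested by subtracting the log2 fold change at rest from that under ventilation, with an approximate normal test whose standard errors come from the deposited p. These 2 comparisons share no lungs. A deposited p of 1 or a fold change of exactly 0 gives no standard error, and such members cannot pass. The unventilated groups carried Xist and the ventilated groups the Y-linked Ddx3y (91.9 to 115 CPM, against 0.234 and 0.421 CPM unventilated), so a change of the genotype difference with ventilation and one with sex cannot be told apart. In lungs with injury like wild type 40 of 42 members had a negative difference, with a median of -0.86 against -0.02 for all genes. Of 39 members with a standard error 4 passed an adjusted p of 0.05, all lower, where 0.23 percent of all genes were called lower. Prc1 differed by -1.69 ± 0.39 (adjusted p = 0.00227), Top2a by -1.34 ± 0.35 (adjusted p = 0.018), Mki67 by -1.17 ± 0.32 (adjusted p = 0.0304) and Aurkb by -2.55 ± 0.71 (adjusted p = 0.0304). Ect2 (-1.79, adjusted p = 0.0583), Bub1b (-1.75, adjusted p = 0.0791) and Rrm2 (-1.51, adjusted p = 0.0839) did not pass. With Bonferroni adjustment none of these 4 remained, and the smallest p was 0.184, for Prc1.

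With the more injured lungs 40 of 42 differences were again negative, with a median of -0.82, and 4 of 40 members with a standard error passed, all lower, where 0.373 percent of all genes were called lower. They were Aurkb (-3.82 ± 0.82, adjusted p = 0.000757), Rrm2 (-2.01 ± 0.51, adjusted p = 0.0108), Prc1 (-1.68 ± 0.46, adjusted p = 0.0235) and Ect2 (-2.05 ± 0.60, adjusted p = 0.045). Of these 4, Aurkb alone passed under Bonferroni adjustment. Its abundance was low, at 1.31 CPM in WT_noVILI and 0.771 CPM in KO_VILIhigh, and a minimum mean of 1 log2 CPM left it out. Both results use the same WT_VILI, KO_noVILI and WT_noVILI lungs and are not independent of each other. Cdkn1a, by contrast, had differences of -0.12 and 0.28 (adjusted p = 1 and 0.977). T and NK cell markers had a median difference of -1.36 in the low injury contrast, with 3 of 13 called lower, and of -0.29 in the high injury contrast with none called. B cell markers had medians of -0.20 and 1.69, with 0 and 4 of 12 called higher. Among all genes tested 129 of 13926 and 156 of 13938 were called higher. The part of these lymphocyte markers in the cell cycle differences was not tested.

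Set side by side gene by gene, 33 members were higher in the knockout at rest and lower in KO_VILIlow than in WT_VILI, 7 were higher in both, and 1, Mcm3, was lower in both. For KO_VILIhigh the counts were 27, 13 and 1. Over the 42 genes the log2 fold changes at rest and under ventilation had a Pearson r of -0.30 (Spearman -0.36) for KO_VILIlow and -0.42 (Spearman -0.33) for KO_VILIhigh. Over all 14285 genes that passed the filter r was 0.29 and 0.21. These are correlations across genes, which are not independent replicates, and they are given as descriptions.

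**Figure D5:**
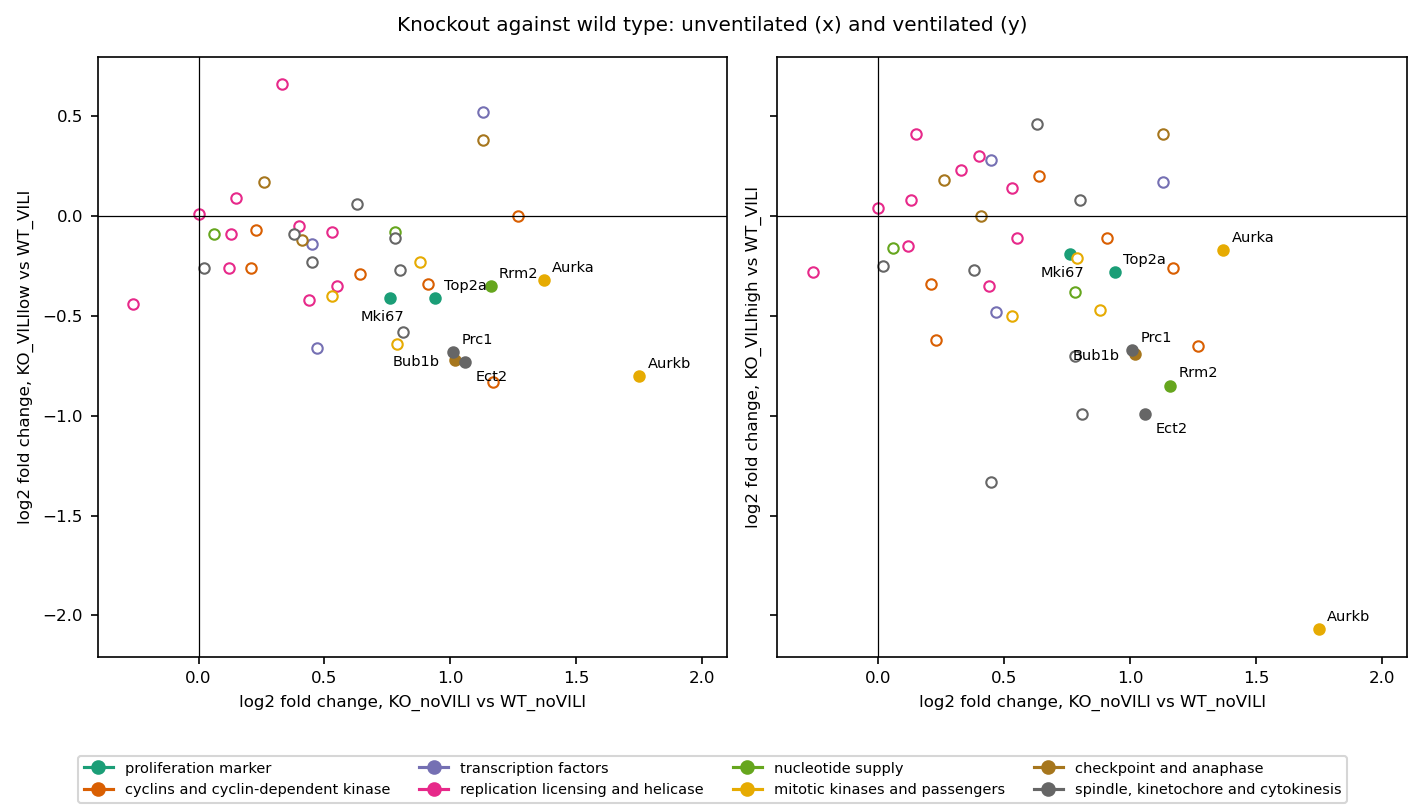
Log2 fold change of the 42 genes between knockout and wild type lungs at rest (x axis) against that under ventilation (y axis), for low injury on the left and high injury on the right, coloured by role, with the 8 genes called at rest filled and named. All 8 lie to the right of 0 and below 0, with Aurkb at 1.75 and -2.07 in the right panel.

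Within the knockout, contrasts of ventilated with unventilated lungs were derived by adding the deposited fold changes. The members' median was -0.56 in KO_VILIlow and -0.59 in KO_VILIhigh, with 38 and 37 of 42 negative, against medians of -0.03 and -0.04 for all genes. None of the 35 and 37 members with a standard error passed an adjusted p of 0.05 by the approximate normal test, where 1.15 and 1.25 percent of all genes were called lower. At an unadjusted p under 0.05, 2 and 5 members were lower and 0 higher, where 4.33 and 5.3 percent of all genes were lower. The test counts the variance of wild type lungs that cancel, which makes it conservative. In KO_VILIlow these were Mki67, from 37.3 to 18.9 CPM (-1.0 ± 0.41), and Top2a, from 19.5 to 9 CPM (-1.13 ± 0.44). In KO_VILIhigh they were Top2a (-1.01), Rrm2 (-1.51), Aurkb (-2.75), Cenpe (-2.04) and Cenpf (-1.35). T and NK cell markers had medians of -1.45 and -0.49 in these contrasts, with 3 and 0 of 13 called lower, and the sex-linked RNA differed as well. Their part was not tested.

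No cell cycle gene passed between the ventilated knockout groups of different injury, where few of all genes passed. Between KO_VILIhigh and KO_VILIlow the median difference was 0.03, with 26 positive and 16 negative, and 0 of 38 members with a standard error passed, where 0.122 percent of all genes did. At an unadjusted p under 0.05 the count was 0 as well, where 2.08 percent of all genes were called. Both counts lie near the background and are not read as a result about the members. The widest differences were in Aurkb (-1.27 ± 0.91) and Cenpe (-1.10 ± 1.1), each with an adjusted p = 1 by the approximate normal test. Mki67 differed by 0.22 ± 0.42 and Pcna by 0.17 ± 0.32 (approximate SE), both smaller than their errors. Here too the test counts the variance of the WT_VILI lungs, which cancel, so the errors are too wide and the test is conservative.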

How the data were processed

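RNA sequencing of whole lung was deposited as 4 comparison tables. Per the submitters' processing notes the authors used Bowtie 1.1.2, the mouse build mm9, R 3.0.1 and edgeR; the counting method, gene filter and edgeR settings are not given in the sources used here. Per the file headers the columns are logFC, logCPM, PValue and FDR. The deposited logFC and logCPM were read as log2 values, and the authors' p-values and adjusted p-values were used as deposited, with a call at 0.05. Depth is unknown, as no values per library were used here, and p-values measure the spread between duplicates, which may be technical.

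Group levels were computed from log2 fold change and mean log2 CPM. KO_noVILI and both WT levels came from their own tables, and ventilated knockout levels were WT_VILI multiplied by the deposited fold. An approximate standard error was obtained for each gene by dividing its log2 fold change by the normal quantile that the deposited two-sided p corresponds to. The 5 derived contrasts summed fold changes and variances and used a normal test, with Benjamini-Hochberg adjustment over the genes whose mean abundance reached 0 log2 CPM in all 4 tables. Genes with a fold change of exactly 0 in a needed table were not tested. Genes with another fold change but a deposited p of 1 have no standard error either; they entered the adjustment and the background shares at a p of 1. On simulated data the procedure was run with noise drawn separately for each comparison and with known standard errors. Lungs shared between comparisons were not simulated, so that run cannot show how the test behaves where they are shared.

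The members, gene lists and marker lists were chosen with earlier results of these data known. Genes named are all members that passed, up to 5 called genes per list and comparison with the smallest p, and Cdkn1a, Ccnd1, Myc, Cldn4 and sex-linked genes; promoters were printed for up to 3 replication and 3 mitotic members with the smallest p at rest; list markers near 0 and uncalled values beside them were added after their values were seen. Alternatives were an adjusted p of 0.1, Bonferroni adjustment, abundance minimums, centring and, both chosen after seeing the data, standard errors from a running median over 401 genes of like abundance and leaving genes without a standard error out of the adjustment. Computation used pandas 2.3.3 and numpy 2.4.6 under Python 3.11.15, with scipy 1.17.1 for quantiles and matplotlib 3.10.9 for plots. Promoter windows are RefSeq's, on GRCm38.p6.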

Additional observations from a re-analysis of the deposited data

Results flagged for a closer look

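The genotype difference with ventilation differed from that without it, by the approximate test of the difference itself, for 4 cell cycle genes in each ventilated knockout group. All were lower, where 0.23 percent (low injury) and 0.373 percent (high injury) of all genes were called lower. Under Bonferroni adjustment 0 of the 4 remained for low injury and 1, Aurkb, for high injury. In lungs with low injury the difference was -1.17 for Mki67, -1.34 for Top2a, -2.55 for Aurkb and -1.69 for Prc1 on the log2 scale. In lungs with high injury it was -2.01 for Rrm2, -3.82 for Aurkb, -2.05 for Ect2 and -1.68 for Prc1. Aurkb and Prc1 are in both sets, which share 3 of their groups of lungs. The unventilated and ventilated groups also differed in sex-linked RNA, so ventilation and sex cannot be told apart in these differences.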

How the results depend on the processing

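No paired analysis was possible because the tables hold no values per library and the labels give each group 1 record. For the same reason no library could be left out. Bonferroni adjustment took the members called higher in KO_noVILI against WT_noVILI from 8 to 0, those higher in WT_VILI from 2 to 1, and those lower in the change of the genotype difference from 4 to 0 (low injury) and from 4 to 1 (high injury). An adjusted p of 0.1 took the members called lower in WT_VILI against WT_noVILI from 0 to 1, namely Mcm7, and those lower in the low injury difference from 4 to 7. With a minimum mean of 1 log2 CPM, which left out Aurkb, the members called higher at rest went from 8 to 7. Those lower in the low and high injury differences each went from 4 to 3. The other alternatives run, including trend standard errors, leaving out genes without a standard error, and centring, left every count of members within 1.5 times of its value and every median of the members on its side of 0. Over all genes, trend standard errors moved the calls between KO_VILIhigh and KO_VILIlow from 17 to 46 and those in the high injury difference from 208 to 389; the cause of these changes was not tested. Unknown depth, duplicates and abundances near 1 CPM limit the low genes, such as Ccnb1, Ube2c and Aurkb.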
